A study of Mus musculus with 4 samples.

Results

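Interleukin 10 (IL-10) and its receptor pathway were followed as 6 genes of a single-cell table of 28692 genes, chosen by name. They were the ligand gene Il10, the receptor chain genes Il10ra and Il10rb, the signal transducer gene Stat3, and Socs3 and Bcl3, which are genes that the pathway switches on. The cells came from the lamina propria of the colon of 4 male C57/Bl6N mice and had been sorted as CD11b+ cells that were also Ly6C (Ly6c2)+ or CD64+, a gate that takes monocytes and macrophages. The mice called DEP 11 and DEP 13 had been gavaged with 12 µg of diesel exhaust particles (DEP) in 200 µL of phosphate-buffered saline (PBS), 5 days each week over roughly 6 months, and the mice called PBS 2 and PBS 3 had received PBS alone. No source used here gives their age. Each mouse was 1 droplet library, so the mouse was the replicate and each group held 2.

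IL-10 is a cytokine that restrains macrophages, and resident macrophages of the gut wall are among its known sources and targets. It binds a receptor built from a ligand-specific chain (Il10ra) and a chain shared with other cytokines of the family (Il10rb). The kinases JAK1 and TYK2 on these chains then activate the transcription factor STAT3, which enters the nucleus and induces target genes, among them Socs3, a feedback inhibitor of cytokine receptors, and Bcl3, a nuclear partner of NF-κB. Monocytes that enter the colon carry Ly6C and lose it as they become macrophages, which make complement component C1q. The genes were therefore read along the levels of Ly6c2 and C1qa and then between DEP and PBS mice.

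A total of 4771 barcodes had at least 1000 unique molecular identifiers (UMIs, each marking 1 captured RNA molecule), and 4623 of them passed filters on detected genes and mitochondrial share. Clustering placed 197 of these in a cluster led by T and B cell genes and 80 in a cluster led by plasma cell genes, and both clusters were set aside, which left 4346 analysed cells. Of these, 1125 came from DEP 11, 594 from DEP 13, 1190 from PBS 2 and 1437 from PBS 3. The monocyte and macrophage label was checked by levels, since shares of cells with a UMI are high even for plasma cell genes (Igha was found in 96.7% to 99.7% of the analysed cells per mouse). In CPM (the UMIs of a gene per 1000000 UMIs of the same cells), Lyz2 was at 25880 to 27970 and Csf1r at 510 to 686 per mouse, the 5 markers of mononuclear phagocytes together at 27350 to 29540 and the 10 T cell markers together at 23.0 to 36.9. All 10 plasma cell markers had UMIs in the analysed cells of every mouse, with a summed level of 3902 to 9466 CPM and the highest value in PBS 3. The 10 B cell markers summed to 95.3 to 105 CPM in 3 mice and to 459 in PBS 3. There were 36 barcode sequences found in more than 1 mouse, and in 12 of these both barcodes were deep. Total counts were lowest in DEP 13 (4489342 UMIs) and highest in PBS 2 (10293703 UMIs), so values of DEP 13 are the least precise.

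The 6 genes lie on 5 chromosomes of build GRCm38 (mm10, GENCODE M21 gene bounds, 1-based). Il10 (ENSMUSG00000016529) is at chr1:131019845-131024974 on the plus strand, Il10ra (ENSMUSG00000032089) at chr9:45253837-45269149 on the minus strand and Il10rb (ENSMUSG00000022969) at chr16:91406164-91425834 on the plus strand. Stat3 (ENSMUSG00000004040) and Socs3 (ENSMUSG00000053113) share chromosome 11, at chr11:100885098-100939540 and chr11:117966079-117970047, both on the minus strand. Bcl3 (ENSMUSG00000053175) is at chr7:19808462-19822770 on the minus strand. All of them were detected, though unequally: in the analysed cells Il10 had 729 UMIs in 8.86% of cells and Bcl3 563 UMIs in 11.02%, against 3698 UMIs in 52.1% for Il10ra, 3935 in 51.8% for Il10rb, 2030 in 34.3% for Stat3 and 13401 in 67.9% for Socs3. These counts also depend on how well the 3′ end of each gene is captured, so levels are compared below between cells or mice and not between genes.

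RefSeq windows of 300 bases around the gene start, with 250 bases before it and 50 from it on, were held for 3 of the 6 genes, namely Stat3, Socs3 and Bcl3 (build GRCm38.p6). Both target genes are shown here, each on its own coding strand and in the 5′ to 3′ direction, because each window holds a match to 1 of the 2 motifs searched (STAT and NF-κB), which the capitals mark. The windows lie at chr11:117969317-117969616 (minus strand) for Socs3 and chr7:19822706-19823005 (minus strand) for Bcl3.
Socs3: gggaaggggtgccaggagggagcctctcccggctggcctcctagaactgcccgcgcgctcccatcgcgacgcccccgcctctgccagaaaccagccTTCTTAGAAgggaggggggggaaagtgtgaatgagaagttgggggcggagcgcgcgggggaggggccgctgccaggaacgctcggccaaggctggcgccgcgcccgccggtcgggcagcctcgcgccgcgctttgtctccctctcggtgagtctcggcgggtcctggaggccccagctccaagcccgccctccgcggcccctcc
Bcl3: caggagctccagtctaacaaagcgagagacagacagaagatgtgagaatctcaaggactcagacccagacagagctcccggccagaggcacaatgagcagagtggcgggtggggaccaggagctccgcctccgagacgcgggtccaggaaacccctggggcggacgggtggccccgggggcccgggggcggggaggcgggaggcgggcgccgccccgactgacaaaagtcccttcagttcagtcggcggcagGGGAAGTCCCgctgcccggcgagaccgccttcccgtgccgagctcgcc
The Socs3 window held TTCTTAGAA, a match to the STAT motif TTCNNNGAA, which began 154 bases before the start that RefSeq gives. That start lies inside the GENCODE bounds of Socs3 above, so the whole window is within those bounds and does not lie before the outermost GENCODE start. Searched on both strands, this motif was in 8.30% of the 32851 windows in the table. The Bcl3 window held GGGAAGTCCC, a match to the NF-κB motif, which began 2 bases past the first base of the gene in RefSeq, and windows with that motif made up 8.46%. The Bcl3 window held no STAT motif, the Socs3 window no NF-κB motif and the Stat3 window neither. A match describes the letters of the window and does not show that a factor binds there.

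Il10 was carried by few cells, and most of them were rich in C1qa. Of the 4771 barcodes with at least 1000 UMIs, 414 (8.68%, exact binomial 95% interval 7.89% to 9.51%) had at least 1 Il10 UMI. Of these carriers, 385 were analysed cells, 26 belonged to the T, B and plasma cell clusters and 3 had failed a filter. The analysed cells were ranked by C1qa UMIs per 10000 and divided into 4 equal groups, Q1 (lowest) to Q4 (highest), of which Q1 and Q2 together are called C1qa-low and Q3 and Q4 C1qa-high. By Ly6c2 they were divided into negative cells (no UMI), low cells and high cells, the last 2 below and above the median of the cells with a UMI. Among the 385 carriers 278 (72.2%) were C1qa-high, 231 were Ly6c2-negative, 112 Ly6c2-low and 42 Ly6c2-high. A single Il10 UMI was all that 250 of the carriers had, the highest count was 20 in 1 cell of PBS 2, and the 39 carriers with the most UMIs held 236 of the 729 UMIs (32.4%). The carriers were deeper than the other analysed cells, with a median of 7776 against 5913 UMIs, so shares below are given after each cell was thinned at random to 1000 UMIs.

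After thinning, 1.01% (0.506% to 1.80%) of the cells in C1qa Q1 had an Il10 UMI, 1.38% (0.775% to 2.27%) in Q2, 3.22% (2.26% to 4.45%) in Q3 and 3.22% (2.25% to 4.45%) in Q4. Q3 and Q4 had the same share, and the intervals of neighbouring groups overlapped throughout. In DEP 13 the share was 0.847% in Q4 and 0.935% in Q2, each from 1 cell. By Ly6c2, the thinned share was 2.31% (1.76% to 2.98%) in negative cells, 2.94% (1.95% to 4.25%) in low cells and 1.20% (0.600% to 2.13%) in high cells. Without thinning the corresponding shares from Q1 to Q4 were 3.77%, 6.08%, 12.4% and 13.2%, at median depths of 4878, 5496, 7634 and 7473 UMIs. These intervals, like all binomial intervals here, cover counting error only.

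**Figure D1:**
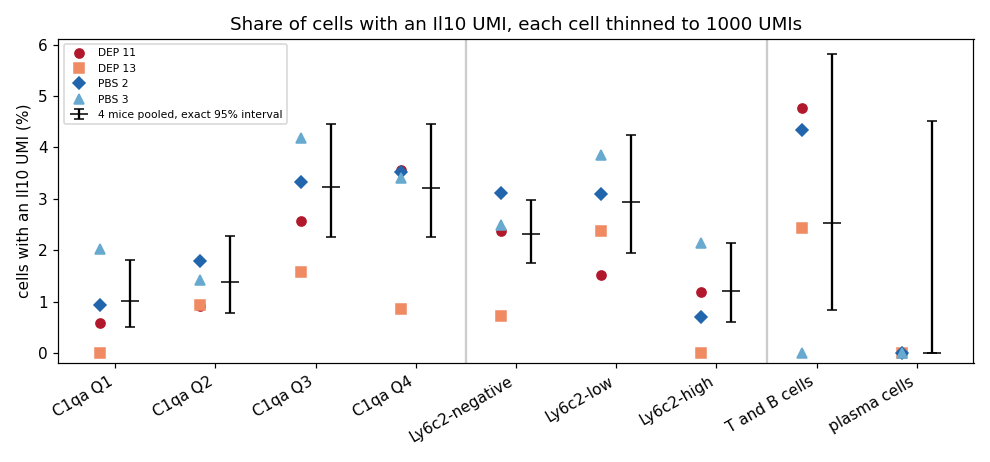
Share of cells with an Il10 UMI (percent) after each cell was thinned to 1000 UMIs, by C1qa group (Q1 to Q4), by Ly6c2 class and in the 2 clusters set aside. Coloured symbols are single mice, and black dashes with bars are the pooled share with its exact 95% interval. C1qa Q3 and Q4 sit at 3.22%, Q1 at 1.01%, and no plasma cell kept an Il10 UMI.

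Free RNA can place Il10 UMIs in droplets of cells that do not make it, so Il10 was also read where monocytes and macrophages are few. Whether the T, B and plasma cells made Il10 themselves was not tested. Plasma cells had 16.6 ± 4.90 CPM of Il10 (mean ± SD, n = 4 mice), from 26 UMIs in all. As counted, 16 of the 80 plasma cells had an Il10 UMI (20.0%, at a median depth of 20940 UMIs), and after thinning 0 of 80 did, which allows a share of up to 3.75% by the limit of 3 counts (the exact 95% interval reaches 4.51%). Barcodes with fewer than 500 UMIs had 36.0 ± 8.33 CPM of Il10, from 16 UMIs in 14 of 1614 barcodes. The cluster of T and B cells had 65.6 ± 63.1, with 7.18 in PBS 3 and 153 in PBS 2, from 29 UMIs in 10 cells. Of these, 19 UMIs lay in 5 cells of PBS 2. The level of Il10 in C1qa Q1 (10.02 ± 5.07) and in Ly6c2-high cells (10.5 ± 6.61) was on average no higher than in plasma cells, although in PBS 3 both (16.6 and 17.7) were slightly above its plasma cells (15.9). Free RNA and expression cannot be told apart at these levels. In C1qa-high cells each mouse exceeded its own plasma cells, with 32.5 against 13.03 CPM for DEP 11, 19.3 against 13.9 for DEP 13, 34.8 against 23.8 for PBS 2 and 36.9 against 15.9 for PBS 3. The barcodes under 500 UMIs of the same mice had 30.5, 48.4, 32.9 and 32.2, from 3 to 5 UMIs each, which is too few to tell these barcodes from the C1qa-high cells in any of the 4 mice. As counted, 12.8% of C1qa-high cells had an Il10 UMI at a median depth of 7557 UMIs, a smaller share than in the deeper plasma cells. CPM is relative to all UMIs of a cell, and plasma cells hold more of them. The CPM comparison with plasma cells therefore cannot show how much Il10 in C1qa-high cells was free RNA.

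Along C1qa, Il10 and Il10rb rose, Stat3 fell and Il10ra did not pass the test. Q4 was compared with Q1 in a fit of 16 sums (4 groups in each of 4 mice) with the mouse as a block. The quasi-likelihood test of edgeR was run on 6676 genes at a false discovery rate (FDR) of 5%, and 20.4% of them were called higher and 21.4% lower in Q4, so a call in this comparison was common. Among the 6 pathway genes 3 were called higher (Il10, Il10rb and Socs3) and 1 lower (Stat3).

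In Q1, Il10 had 8.37 CPM (DEP 11), 4.47 (DEP 13), 10.6 (PBS 2) and 16.6 (PBS 3). In Q4 it had 39.45, 17.8, 36.7 and 29.0 in the same order of mice. All Q4 values lay above all Q1 values. The log2 difference was 1.70 ± 0.24 (SE, FDR 1.17e-06). The means over mice were 10.02 ± 5.07, 14.6 ± 5.19, 27.9 ± 10.5 and 30.7 ± 9.67 from Q1 to Q4. The steps between the means of Q1 and Q2 and of Q3 and Q4 were smaller than the SD between mice. That SD leaves out the pairing of groups within mice, and these 2 steps were not tested. Q1 lay at or below the mean level of plasma cells (16.6 ± 4.90). The mean of Q4 lay above it but not above the mean of the barcodes under 500 UMIs (36.0 ± 8.33), which Q4 of DEP 11 and of PBS 2 exceeded.

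The chain shared by the family moved with the ligand. Il10rb had 74.2, 86.1, 104 and 76.2 CPM in Q1, in the order DEP 11, DEP 13, PBS 2, PBS 3, and 174, 207, 179 and 166 in Q4. Here too the Q4 values lay above all Q1 values. The means climbed from 85.2 ± 13.7 through 119 ± 27.2 and 145 ± 7.52 to 181 ± 17.9, a log2 difference of 1.14 ± 0.095 (FDR 9.93e-11), with plasma cells at 48.1 ± 10.7. Barcodes under 500 UMIs were at 127 ± 49.4 (164 ± 41.9 in DEP and 89.5 ± 1.29 in PBS mice). Their mean lay above those of Q1 and Q2, though above that of Q2 by less than the SD.

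The ligand-specific chain gave no call. Il10ra had 121, 123, 144 and 124 CPM in Q1 and 122, 140.3, 139 and 125 in Q4, in the same order of mice. The groups overlapped fully, and the log2 difference was 0.087 with a 95% interval of -0.07 to 0.24 (FDR 0.412). Its means over mice stayed between 121 and 132 CPM in the 4 groups, against 37.1 ± 12.0 in plasma cells and 227 ± 36.1 in barcodes under 500 UMIs.

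Stat3, the transducer, ran the other way. It had 96.9, 101, 108 and 73.8 CPM in Q1 and 48.9, 64.2, 72.5 and 42.2 in Q4. It was lower in Q4 in every mouse, although Q4 of PBS 2 (72.5) nearly reached Q1 of PBS 3 (73.8). The log2 difference was -0.69 ± 0.10 (FDR 1.98e-06). Plasma cells had 30.1 ± 14.9 CPM of Stat3, and barcodes under 500 UMIs had 147 ± 43.6, a mean above that of every C1qa group.

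The target genes were uneven. Socs3 had 336, 264, 727 and 229.9 CPM in Q1 and 408, 414, 691 and 255 in Q4. It was higher in Q4 of DEP 11, DEP 13 and PBS 3 and lower in Q4 of PBS 2, which had the highest Socs3 level of the 4 mice in every group. The call (0.28 ± 0.080, FDR 0.00639) was lost without DEP 11 (0.24, FDR 0.0623), without DEP 13 (0.17, FDR 0.0553) and without the mouse block (0.25, FDR 0.645), and the difference was 0.41 without PBS 2. Bcl3 had 13.8, 31.3, 25.1 and 17.2 in Q1 and 8.27, 16.6, 28.3 and 8.82 in Q4, and its log2 difference of -0.38 (95% interval -0.83 to 0.07, FDR 0.172) did not pass. Without PBS 2 it was -0.78 and passed (FDR 0.0242). When each cell was thinned to 1000 UMIs before summing, Il10 and Il10rb kept their calls, while Stat3 (-0.51, FDR 0.114) and Socs3 (0.18, FDR 0.309) kept their direction and did not pass. Plasma cells had 104.6 ± 29.0 CPM of Socs3 and 10.3 ± 6.01 of Bcl3. Barcodes under 500 UMIs had 429 ± 137 and 7.63 ± 15.3, the last from 5 UMIs.

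**Figure D2:**
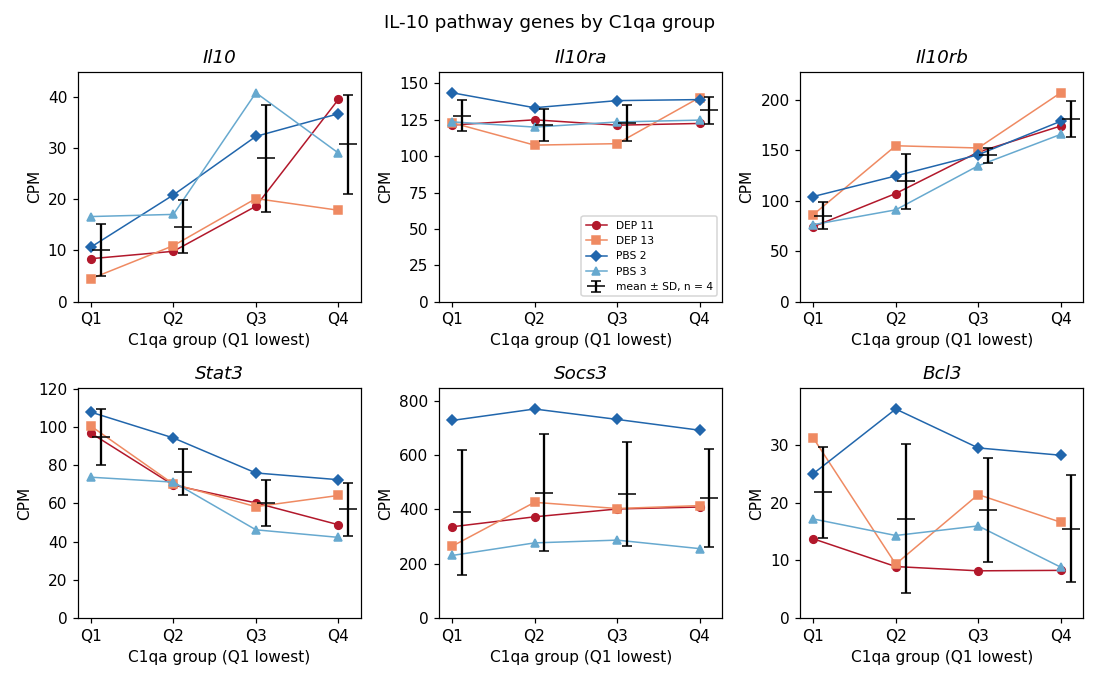
Level of each pathway gene (CPM, summed over the cells of a mouse) in the 4 groups of cells by C1qa (Q1 lowest, Q4 highest), with 1 coloured line per mouse and black dashes for the mean ± SD of 4 mice. Il10 and Il10rb climb to 30.7 and 181, Stat3 declines from 94.8 to 56.9, Il10ra stays between 121 and 132, and PBS 2 is the highest line for Socs3 in all 4 groups.

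By Ly6c2 the same genes moved in mirror image. The 918 Ly6c2-high cells were compared with the 2510 Ly6c2-negative cells, in sums per mouse with the mouse as a block. These classes also differ in C1qa (1627 ± 418 against 4921 ± 508 CPM), so both comparisons contrast overlapping sets of cells and share all mice. Of all 6676 genes, 15.7% were called higher and 14.9% lower in Ly6c2-high cells, and of the pathway genes 1 was called higher (Stat3) and 3 lower (Il10, Il10rb and Socs3).

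Il10 had 24.1, 16.5, 32.8 and 28.9 CPM in Ly6c2-negative cells, in the same order of mice, and 9.32, 2.06, 13.02 and 17.7 in Ly6c2-high cells. It was lower in the Ly6c2-high cells of every mouse (log2 difference -1.20 ± 0.19, FDR 1.67e-05). Ly6c2-low cells, with 26.8 ± 7.79, differed from Ly6c2-negative cells (25.6 ± 7.01) by less than the spread between mice. Within C1qa-low cells, Il10 was at 16.7 ± 7.90 in Ly6c2-negative and 8.89 ± 4.95 in Ly6c2-high cells. Within C1qa-high cells it was at 29.6 ± 7.05 and 19.2 ± 15.8, the last from only 17 UMIs.

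Il10rb had 142, 164, 161 and 124 CPM in Ly6c2-negative cells and 94.9, 84.3, 117 and 97.0 in Ly6c2-high cells, lower in every mouse without overlap between the classes (-0.55 ± 0.081, FDR 5.75e-06). Stat3 had 62.8, 69.4, 75.7 and 56.5 against 94.9, 71.97, 113 and 69.3, higher in every mouse (0.43 ± 0.097, FDR 0.00128), although the classes overlapped. Socs3 had 415, 393, 739 and 288 in Ly6c2-negative cells and was lower in the Ly6c2-high cells of all 4 mice, with 343, 226, 708 and 217 (-0.32 ± 0.080, FDR 0.00288). The difference for Il10ra was 0.02 with an interval of -0.13 to 0.17, and for Bcl3 0.07 with an interval of -0.29 to 0.43, neither of which passed. When all cells with a Ly6c2 UMI were set against those without, Il10 (-0.31, FDR 0.0959) and Stat3 (0.15, FDR 0.226) no longer passed, and Il10rb and Socs3 did. Stat3 also did not pass when each cell was thinned to 1000 UMIs (0.23, FDR 0.592), and without the mouse block neither Stat3 (0.41, FDR 0.103) nor Socs3 (-0.30, FDR 0.648) passed.

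**Figure D3:**
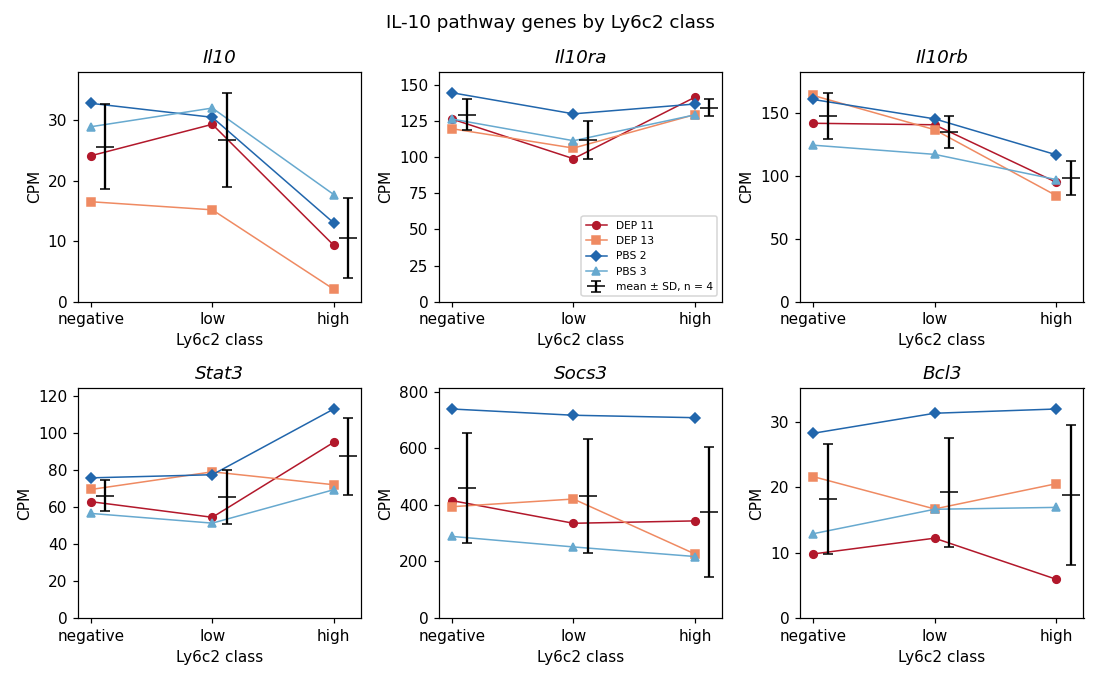
Level of each pathway gene (CPM) in Ly6c2-negative cells (no UMI) and in Ly6c2-low and Ly6c2-high cells, with 1 coloured line per mouse and black dashes for the mean ± SD of 4 mice. Il10 drops from 25.6 to 10.5 and Il10rb from 148 to 98.2 in Ly6c2-high cells, while Stat3 is higher there (87.3 against 66.1).

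The clusters of the analysed cells showed the same genes unevenly spread, which is given as a description since clustering used the expression of these cells. Il10 was lowest, at 3.89 ± 0.892 CPM, in a cluster of 339 cells led by Cd209a and Klrd1. It was at 36.7 ± 6.05 in the most abundant cluster, 1228 cells led by H2-M2, Zmynd15 and Mmp13, and at 41.4 ± 30.1 in 273 cells led by Ccl8 and Folr2. In 435 cells led by Stmn1 it was at only 14.9 ± 10.95, with Socs3 at 206 ± 112. The C1qa level of these cells (6149 ± 613) was close to that of the most abundant cluster (6227 ± 720). Another 435 cells, led by Clec4b1 and Spp1, had Il10 at 18.75 ± 9.01 and C1qa at 4272 ± 577. A cluster of 128 cells led by Il1a, Cxcl1 and Tnf had the highest means of Il10ra (237 ± 52.0), Il10rb (279 ± 103) and Socs3 (1166 ± 290), with Il10 at 41.8 ± 32.3 from 30 UMIs. Cells led by the monocyte genes Ifitm6, Chil3 and Hp had the highest mean of Stat3 (104 ± 14.5) and the lowest of Il10rb (76.3 ± 6.45).

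Other genes of the pathway were read from lists of known members. Their counts are to be read against the shares of all genes called, 20.4% higher and 21.4% lower along C1qa and 15.7% higher and 14.9% lower by Ly6c2. Of 9 genes of signal transduction 7 were tested along C1qa, and 0 were called higher and 3 lower (list median -0.27, against 0.01 over all genes). Among the called ones were Stat5a and the phosphatase gene Ptpn6. By Ly6c2, 2 of the 7 were called higher, among them Ptpn6 (0.37 ± 0.053, FDR 3.70e-06), with a list median of 0.26 against -0.01. Ptpn6 lost this call in 1 of 11 settings other than leaving out a mouse (FDR 0.0729).

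Of 18 further target genes 17 were tested, and along C1qa 5 were called higher and 8 lower, with a list median of -0.24. The apoptotic-cell receptor gene Mertk, itself a macrophage marker, rose by 2.42 ± 0.31 (FDR 2.94e-07). The kinase gene Pim1 fell (-0.96 ± 0.084, FDR 2.41e-10), as did Zfp36, whose product destabilises cytokine mRNA (-0.53 ± 0.061, FDR 4.73e-08), and the transcription factor gene Nfil3 (-1.41 ± 0.18, FDR 2.48e-07). Zfp36 lost this call in 1 of 11 settings other than leaving out a mouse (FDR 0.0839). By Ly6c2, 4 targets were called higher and 4 lower (median 0.01), including Pim1 (0.45 ± 0.072, FDR 1.82e-05), Sbno2, a corepressor gene (0.90 ± 0.14, FDR 2.07e-05), and Zfp36l1 (-0.65 ± 0.069, FDR 4.18e-08). Over 11 settings other than leaving out a mouse, Pim1 lost its call in 3 (FDR up to 0.291) and Sbno2 in 1 (FDR 0.585). The targets thus split in both comparisons and did not move as 1 block with Il10.

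Of 15 genes that IL-10 is known to hold down in macrophages 10 were tested, and along C1qa 5 were called higher and 2 lower (median 0.39). Among the higher ones was Cxcl1, a neutrophil-attracting chemokine gene (2.95 ± 0.38, FDR 3.59e-07), with Cxcl2, Ccl4, Tnf and Cd86, whereas Il1b and Ptgs2 were lower. By Ly6c2, 0 were called higher and 4 lower (median -0.19), among them Cxcl1 (-2.01 ± 0.17, FDR 1.01e-09) and Cxcl2 (-0.92 ± 0.12, FDR 1.22e-06). Of 13 regulators of the Il10 gene 12 were tested, with 3 called higher and 2 lower along C1qa (median 0.06), near the shares over all genes. Maf, an activator of Il10 (1.38 ± 0.13, FDR 1.42e-09), and Irf8 (0.69 ± 0.065, FDR 9.84e-10) were among the higher ones, and Bhlhe40, a known repressor of Il10, and Nfkb1 were the lower ones. By Ly6c2, 0 were called higher and 4 lower (median -0.09), with Maf at -1.09 ± 0.099 (FDR 2.84e-09) and with Irf8 and Id2 among the others.

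Of 6 other receptor genes that signal through STAT3 5 were tested. Along C1qa 1 was called higher (Il21r) and 2 lower, Il6ra (-0.80 ± 0.10, FDR 2.38e-07) and Csf3r (median 0.14), and by Ly6c2 2 were called higher, Csf3r (0.81 ± 0.12, FDR 6.14e-06) and Il6ra, and 2 lower (median -0.06). Il6ra along C1qa (FDR 0.194) and Csf3r by Ly6c2 (FDR 0.0689) each lost the call in 1 of 11 settings other than leaving out a mouse. The other ligands and receptor chains of the IL-10 family were too low to test.

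Over the 16 sums of mice and C1qa groups, the genes whose levels were most like Il10 by Pearson r of log2 (CPM + 1) were As3mt (0.884), Ccnd2 (0.880), Gdf3 (0.872), Tspan4 (0.870) and Slc25a10 (0.868). Fcgr4 (0.976), Ctsc and Fads1 were most like Il10rb, Sptlc2 (0.901), Ccm2 and Ehd4 most like Il10ra, and Bin2 (0.957), Eif3f and Ube2d3 most like Stat3. Efhd2 (0.956), Atp13a2 and Lrp10 were most like Socs3, and Dhx16 (0.818), Bcl2l11 and Pik3r5 most like Bcl3. Among the pathway genes, r was 0.633 between Il10 and Il10rb, -0.682 between Il10 and Stat3 and 0.193 between Il10 and Il10ra. The 4 groups of a mouse share its library, so these values describe the 16 sums and carry no test.

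Between DEP and PBS mice, no pathway gene passed the test. Over all analysed cells, 0% of 6676 genes were called by edgeR (178 had an unadjusted p under 0.05, DESeq2 called 4 and limma voom 0). Of the 6 pathway genes 0 were called by any of these tools, and 1, Il10, had an unadjusted p under 0.05 in edgeR.

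Il10 stood at 22.8 CPM (DEP 11) and 14.5 (DEP 13) against 28.2 (PBS 2) and 28.1 (PBS 3). Both DEP mice lay below both PBS mice, which were nearly equal. The log2 difference was -0.57 with a 95% interval of -1.07 to -0.08 (FDR 0.9998). Il10ra had 122, 119, 138 and 123, also without overlap, although DEP 11 and PBS 3 were almost the same (-0.11, interval -0.45 to 0.22, FDR 0.9998). Thus 2 of 6 pathway genes were lower in both DEP mice than in both PBS mice, against 12.5% of all tested genes.

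Il10rb had 133, 149, 147 and 118 CPM, Stat3 66.4, 71.4, 83.4 and 57.0, Socs3 383, 377, 725 and 268, and Bcl3 9.71, 20.7, 30.1 and 14.5. In these 4 genes the mice of the groups overlapped, with PBS 2 as the highest mouse for Stat3, Socs3 and Bcl3 and PBS 3 as the lowest for Il10rb, Stat3 and Socs3. Their log2 differences were 0.10 (interval -0.28 to 0.47), -0.02 (-0.45 to 0.40), -0.37 (-1.13 to 0.39) and -0.60 (-1.47 to 0.28), intervals wide enough to hold sizeable changes. For Bcl3 the difference ranged from -1.22 without DEP 13 and -1.02 without PBS 3 to -0.072 without DEP 11 and -0.038 without PBS 2. For Socs3 the PBS mice alone set the direction: it was 0.47 (FDR 0.4927) without PBS 2 and -0.89 (FDR 0.0341) without PBS 3. Each of these fits holds 1 PBS mouse, which is assumed to vary like the 2 DEP mice, so this FDR rests on the spread of the DEP mice. The summed level of 17 dissociation response genes (immediate early and heat shock genes) was 12480 and 10710 CPM with DEP against 16330 and 14470 with PBS. It was highest in PBS 2, as was Socs3, and its part in these values was not tested.

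Divided into C1qa-low and C1qa-high cells, the same order held for Il10. In Q4 alone the groups overlapped (28.6 ± 15.3 with DEP against 32.8 ± 5.42 with PBS), and DEP 11 had the highest Il10 level of all mice (39.45). In C1qa-low cells Il10 had 8.95, 7.16, 17.1 and 16.8 CPM in the same order of mice (from 25, 11, 61 and 65 UMIs), a log2 difference of -1.05 (interval -1.71 to -0.39, FDR 0.999). Both DEP values were below the Il10 level of the plasma cells of the same mice (13.03 and 13.9), and the plasma cells of the PBS mice had 23.8 and 15.9, so C1qa-low cells hold Il10 at a level at which free RNA and expression cannot be told apart. In C1qa-high cells the values were 32.5, 19.3, 34.8 and 36.9 (-0.43, interval -0.93 to 0.08, FDR 1), with DEP 11 close to the PBS mice and DEP 13 apart. The difference was -0.85 without DEP 11 and -0.16 without DEP 13. In both classes 0 of the 6 genes passed in edgeR, DESeq2 and limma voom, against 0.015% of the genes tested by edgeR in C1qa-high cells (1 of 6674, Apol7a) and 0.015% in C1qa-low cells (1 of 6676, Retnla). Genes lower in both DEP mice than in both PBS mice were 2 of 6 in C1qa-high cells (Il10 and Il10ra, against 15.1% of all genes) and 1 of 6 in C1qa-low cells (Il10, against 12.7%). Il10rb went the other way in C1qa-high cells, higher in both DEP mice than in both PBS mice (168.6 ± 4.67 against 154.6 ± 13.9 CPM). The list of dissociation genes was lower in both DEP mice in each class. C1qa itself was lower in the C1qa-low cells of both DEP mice (1368 ± 114 against 1652 ± 50.2 CPM), and its part in the Il10 values was not tested.

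Whether the DEP effect differed between C1qa-high and C1qa-low cells was tested as an interaction with the mouse as a block. It was 0.68 ± 0.30 on the log2 scale for Il10 (FDR 0.760) and 0.28 ± 0.094 for Socs3 (FDR 0.5435), both with an unadjusted p under 0.05. Without each mouse in turn Il10 ranged from 0.35 (without DEP 11) to 0.81 and Socs3 from 0.15 (without PBS 2) to 0.35. At the FDR threshold 0 of the 6 genes passed, against 0.0449% of all genes (3 in all, and DESeq2 called 0).

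**Figure D4:**
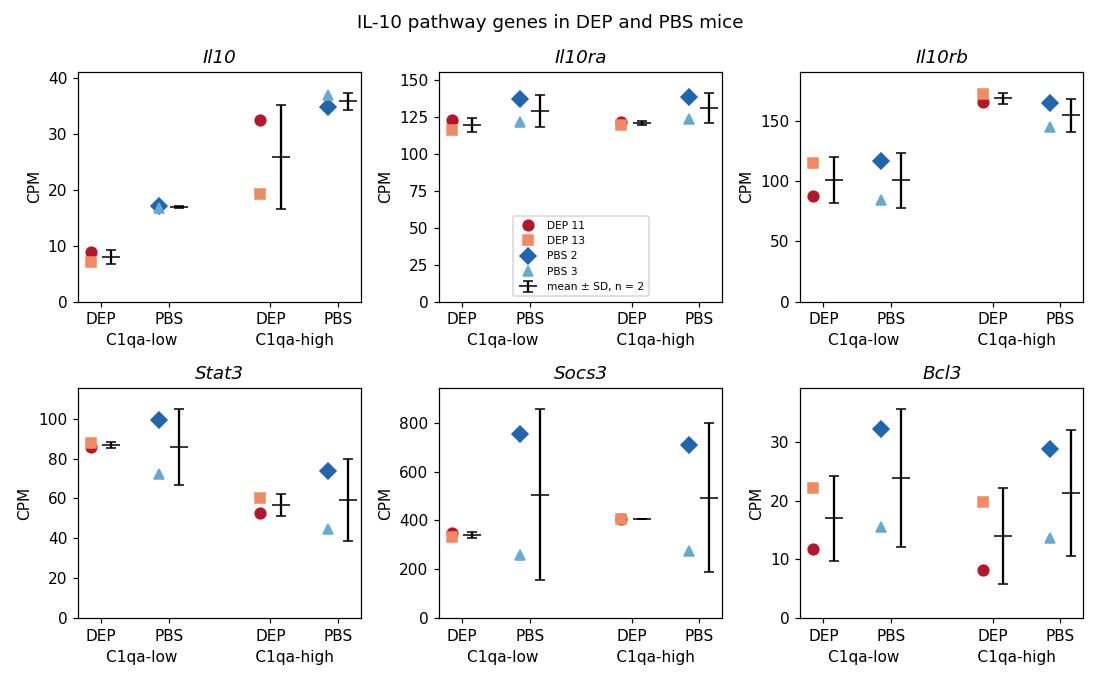
Level of each pathway gene (CPM) in the C1qa-low and C1qa-high cells of each mouse, with the mean ± SD of 2 mice per group. For Il10 the DEP mice lie at 8.95 and 7.16 against 17.1 and 16.8 in C1qa-low cells and at 32.5 and 19.3 against 34.8 and 36.9 in C1qa-high cells, and PBS 2 stands apart for Socs3.

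The share of analysed cells with an Il10 UMI gave the same order. After thinning to 1000 UMIs the share was 1.96% for DEP 11 (95% interval 1.23% to 2.95%) and 0.842% for DEP 13 (0.274% to 1.95%), against 2.52% for PBS 2 (1.71% to 3.58%) and 2.71% for PBS 3 (1.94% to 3.69%). The means were 1.40% ± 0.788 (SD, n = 2) and 2.62% ± 0.137 (n = 2), a difference of -1.22 percentage points. An exact permutation test, two-sided and over 6 assignments of mice, gave p = 0.333, which is the smallest value that 2 against 2 mice can give. The intervals of both DEP mice overlapped those of both PBS mice, that of DEP 13 narrowly. The carriers of each mouse had on average 2.01 (DEP 11), 1.65 (DEP 13), 1.89 (PBS 2) and 1.89 (PBS 3) Il10 UMIs.

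Carriers of Il10 were finally compared with the other C1qa-high cells, after thinning each cell to 3000 UMIs. This left 136 carriers (24, 12, 50 and 50 in DEP 11, DEP 13, PBS 2 and PBS 3) and 1884 other cells, summed per mouse and fitted with the mouse as a block. Of 4433 genes tested 0.293% (13) were called, all higher in carriers, while 0 of the 4 pathway genes tested besides Il10 were called. Socs3 was nearest: it had 427 to 1040 CPM in carriers against 281 to 729 in other cells and was higher in all 4 mice (log2 difference 0.44 ± 0.13, FDR 0.224, and FDR 0.0295 without DEP 13). In DEP 13 the Socs3 levels nearly tied (472 against 465). Il10ra was lower in carriers of all 4 mice without passing (83.3 to 139 against 127 to 139.9, log2 difference -0.24). Its levels nearly tied in DEP 11 (138.9 against 139.9) and PBS 2 (133 against 138), and carriers of DEP 13 had 3 UMIs of it. Il10rb (-0.17) and Stat3 (0.23) were higher in 2 of 4 mice each, and Bcl3 was too low to test. UMIs of both receptor chains were found together in 10.3% of carriers and 12.3% of other cells, Stat3 in 16.9% and 15.2%, and Socs3 in 66.2% and 58.3%.

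The 5 genes with the smallest p in carriers were Cxcl2, Ccl7, Ccl2, Nfkbia and Cxcl1. Cxcl2, a neutrophil-attracting chemokine gene, had 2042, 2278, 1693 and 1780 CPM in carriers of DEP 11, DEP 13, PBS 2 and PBS 3, against 1082, 753, 1004 and 836.2 in other cells. It was higher in every mouse without overlap (log2 difference 1.01 ± 0.098, FDR 3.20e-21) and passed under every other setting run, and after thinning to 1000 UMIs it was the only gene of the table that did. Nfkbia, which encodes the NF-κB inhibitor IκBα, had 833 to 1087 against 471 to 742 and was higher in 4 of 4 mice (0.61 ± 0.12, FDR 0.000167), and Cxcl1 had 111 to 417 against 67.2 to 151 (1.03 ± 0.20, FDR 0.000382). Ccl2 and Ccl7 are genes of chemokines that attract monocytes. Ccl7 rested on 1 mouse: in carriers of PBS 2 it reached 1440 CPM, it was higher in 2 of 4 mice only, and its difference went from 0.86 (FDR 1.91e-06) to -0.16 (FDR 0.996) without PBS 2. Ccl2 had 264 to 807 in carriers against 159 to 320 and was higher in 3 of 4 mice (0.90, FDR 1.91e-06), and it did not pass without PBS 2 (0.60, FDR 0.688) or PBS 3 (0.90, FDR 0.0559). The call of Nfkbia was lost without PBS 3 (0.57, FDR 0.173), and that of Cxcl1 without DEP 11 (0.82, FDR 0.308) or PBS 3 (0.96, FDR 0.173). In DESeq2 3 genes were called, Cxcl2 and Nfkbia (FDR 0.00194) among them, whereas Cxcl1 (1.02, FDR 0.201), Ccl2 (0.81, FDR 0.221) and Ccl7 (0.32, FDR 0.9996) were not. After thinning to 1000 UMIs the differences were 0.57 for Nfkbia, 0.82 for Ccl2 and 0.68 for Ccl7 (FDR 0.973 each) and 0.59 for Cxcl1 (FDR 0.998). Of the carriers 6.62% and of the other cells 4.35% belonged to the cluster led by Il1a, Cxcl1 and Tnf, which also has Ccl7 and Cxcl2 among its leading genes. For the most abundant cluster the shares were 63.2% and 56.1%. The part of these shares in the differences was not tested. The Il10 UMI chose the carriers, so Il10 itself was not compared, and C1qa did not separate them (5740 to 6980 against 5863 to 6962).

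**Figure D5:**
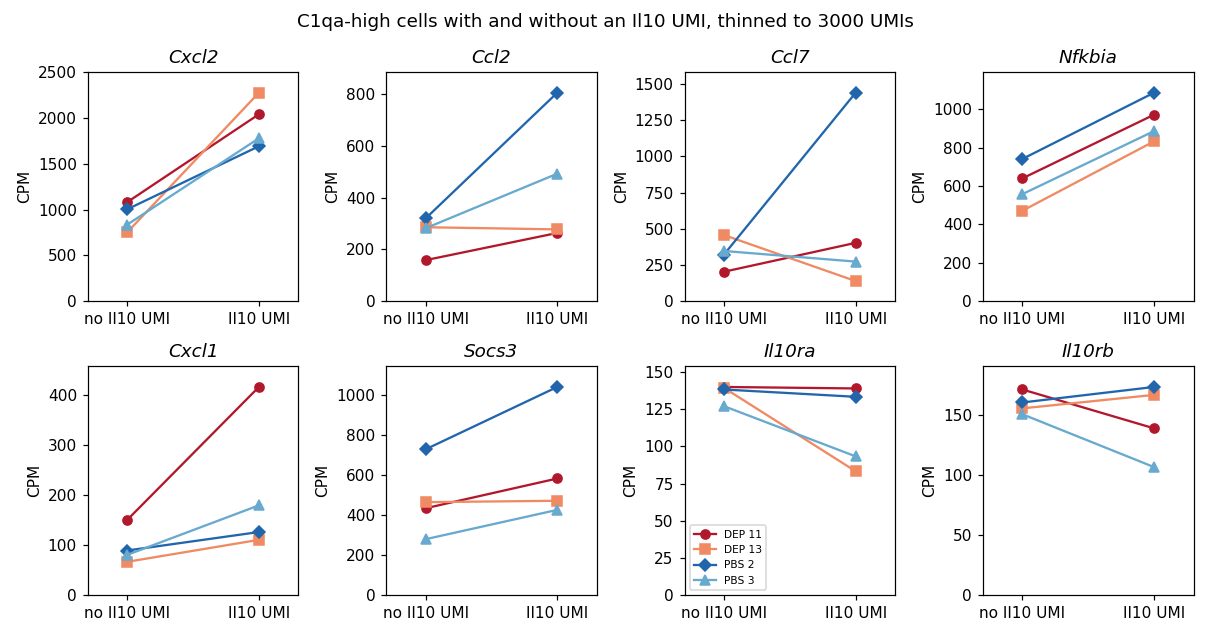
Levels (CPM, cells thinned to 3000 UMIs) of 5 genes called higher in Il10 carriers and of 3 pathway genes, in C1qa-high cells without and with an Il10 UMI, 1 line per mouse. Cxcl2, Nfkbia, Cxcl1 and Socs3 go up in all 4 mice, Ccl7 is carried by PBS 2, and Il10ra is lower in all 4.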

How the data were processed

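The authors deposited raw UMI counts for every gene and barcode, not normalized, from 10x 3′ v2 libraries of sorted colon cells of 4 mice. The submitters' processing notes name Cell Ranger (no version given), STAR 2.6.1a, R 3.5.1 and build mm10. No source used here gives the annotation or a barcode filter applied earlier. Barcodes were assigned to mice by their suffix. Depth was 4489342 to 10293703 UMIs per mouse.

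Barcodes were kept from 1000 UMIs on if log10 of their detected genes reached 2.5 and their mitochondrial share lay above 0 and not above 7%. They were normalized with scran 1.30.0 and divided into 10 Ward clusters from 500 variable genes and 34 principal components. Clusters with at least 3 markers of another cell type among their top 10 genes were removed. Scrublet (scanpy 1.11.5) called 57 of 4623 cells doublets (1.23%, and 3.99% in DEP 13), and these were not removed. Cells were divided at 11.1, 38.4 and 61.2 C1qa UMIs per 10000, and cells with a Ly6c2 UMI at 2.43 Ly6c2 UMIs per 10000.

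Counts were summed per mouse and class. Genes that exceeded 1 CPM in 2 or more sums and had a UMI in at least 5% of cells entered the quasi-likelihood test of edgeR 4.0.16 (TMM scaling, R 4.3.3), with Benjamini-Hochberg adjustment over all tested genes and a threshold of 5%. Fits within mice had the mouse as a block, which takes out differences in level between these 4 mice. Their p-values rest on a variance moderated over all genes, so a small p does not show that the mice were alike. In carriers Ccl7 passed although it was higher in 2 of 4 mice only. Fold changes are log2. Carriers and shares used cells thinned to 3000 or 1000 UMIs with fixed seeds. The scripts were tested on simulated data. Alternatives were DESeq2 1.42.0, the edgeR likelihood ratio test, limma 3.58.1 voom, other cell and gene filters, thinning, other classes and leaving out each mouse.

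The 6 genes, the gene lists, the classes and the tests were chosen with earlier results of these data known. Named genes were the 6 genes, up to 5 list genes per direction and comparison with the smallest p among those called (a few further called members are listed by name only), in carriers, for each direction, the 5 genes of smallest p, and the 5 (Il10) or 3 (other genes) most alike by Pearson r. The leading genes of clusters and the 2 genes called in C1qa-high or C1qa-low cells were named after their values were seen. A few list genes that this rule takes are not reported here by name.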

Additional observations from a re-analysis of the deposited data

How the results depend on the processing

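No paired analysis was possible because the DEP and PBS mice share no replicate number. Depth limits Il10 and Bcl3 most, and 2 mice per group leave wide intervals for every DEP comparison. The number of the 6 genes called was 4 along C1qa and 4 by Ly6c2, and it was 2 along C1qa after thinning each cell to 1000 UMIs and 3 with no mouse block (without Socs3), and by Ly6c2 3 after the same thinning (without Stat3), 2 with all cells with a UMI against none (Il10rb and Socs3) and 2 with no mouse block (Il10 and Il10rb). Without each mouse in turn it was 3 to 5 along C1qa, 4 by Ly6c2, 0 to 1 for DEP against PBS over all cells and 0 to 1 in carriers. The cause was not tested. Il10 and Il10rb along C1qa, and Il10rb by Ly6c2, passed under every setting run, and Il10 was lower in DEP in every one, with a log2 difference of -0.93 to -0.34 without each mouse over all cells. The difference in the share of cells with an Il10 UMI was -1.78 to -0.66 percentage points without each mouse, -4.29 not thinned, -2.57 thinned to 3000 UMIs and -1.10 over all barcodes.
Some differences changed sign, and of these only Ccl7 in carriers had passed. By Ly6c2, Il10ra was -0.057 over all barcodes, -0.0077 thinned and -0.12 with any Ly6c2 UMI against none, and Bcl3 was -0.46 thinned. For DEP against PBS, Stat3 was 0.10 thinned over all cells and Il10rb 0.0083 in C1qa-low cells with cells of at least 2000 UMIs. The interaction of Il10ra was -0.024 with at least 2000 UMIs, -0.0091 without doublets, -0.0018 with no gene filter and -0.18 thinned. In carriers Stat3 was -0.24 thinned to 1000 UMIs and Il10rb 0.0065 over all analysed cells. Without each mouse the ranges were, over all cells, -0.022 to 0.22 for Il10rb, -0.24 to 0.23 for Stat3 and -0.89 to 0.47 for Socs3. They were -0.34 to 0.30 for Stat3 and -0.75 to 0.53 for Socs3 in C1qa-high cells, and -0.23 to 0.22 for Il10rb, -0.16 to 0.22 for Stat3 and -1.11 to 0.36 for Socs3 in C1qa-low cells. For the interaction they were -0.011 to 0.025 for Il10ra, -0.033 to 0.33 for Il10rb, -0.20 to 0.054 for Stat3 and -0.32 to 0.0073 for Bcl3. By Ly6c2 they were -0.0047 to 0.089 for Il10ra and -0.026 to 0.19 for Bcl3, and in carriers -0.13 to 0.32 for Stat3 and -0.16 to 1.20 for Ccl7.
Counts of all genes called over the settings other than leaving out a mouse were 1286 to 3468 along C1qa, 738 to 2393 by Ly6c2, 0 to 72 for DEP over all cells, 0 to 67 in C1qa-high cells, 0 to 4 in C1qa-low cells, 0 to 34 for the interaction and 1 to 65 in carriers. Without each mouse they were 3 to 23, 16 to 31, 0 to 13, 0 to 53 and 2 to 12 for the last 5.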

Other observations

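The other ligands of the IL-10 family were nearly absent from the analysed cells. Il19, Il20, Il24, Ifnl2 and Ifnl3 had 0 UMIs and Il22 had 1. Of the other receptor chains Il22ra1 and Il20ra had 0 UMIs, Il20rb had 5 and Ifnlr1 had 4. Il22ra2, which encodes the soluble IL-22 binding protein, had 93 UMIs in 32 of the 4346 cells.

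Per 1000 C1qa UMIs, Il10 had 9.40 to 17.0 UMIs over the 4 mice in plasma cells, 17.9 to 42.9 in barcodes under 500 UMIs and 6.37 to 90.5 in the cluster of T and B cells. These counts are small, with 1 to 19 Il10 UMIs per mouse in the last class. In the analysed cells, grouped by C1qa itself, the ratio was 8.11 to 24.1 in Q1, 4.04 to 9.415 in Q2, 3.555 to 8.06 in Q3 and 2.40 to 5.03 in Q4.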
